A study of Homo sapiens with 27 samples.

Results

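NQO1, NQO2, 3 aldo-keto reductases of the AKR1C family, AKR1B10, the carbonyl reductases CBR1 and CBR3, and PIR were followed through a microarray study of MDA-MB-231 cells, an established human breast cancer line with a mesenchymal expression pattern. The rule names these genes and AKR1B1 and uses no measured value. The genes themselves were chosen with earlier results of these data known. A probe set, the group of short probes that reads 1 transcript on the array, was taken where the platform annotation named 1 of these 10 genes and no other. This gave 14 probe sets for 9 genes, out of 22215 probe sets and 11963 genes. NQO1 and AKR1C1 had 3 probe sets each, AKR1C2 had 2, and the other 6 genes had 1 each. AKR1B1 was not analysed here. The cells received 5SGlcNAc at 50 µM, Thiamet-G at 25 µM, or DMSO, the vehicle, and no genetic change is named in the labels. 5SGlcNAc inhibits OGT, the enzyme that attaches the sugar O-GlcNAc to proteins inside the cell, and Thiamet-G inhibits OGA, the enzyme that takes it off. RNA was measured on 3 arrays per treatment at 48 h and on 1 array per treatment at 0, 2, 4, 6, 8 and 24 h, 27 arrays in all. The doses of the inhibitors differ, so the 5SGlcNAc and Thiamet-G arrays compare 2 treatments and not matched amounts. All groups come from 1 line, and the labels do not state whether replicates at 48 h were grown as separate cultures. The p-values therefore cover the spread among these arrays alone, and that spread may be technical.

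Apart from PIR, these genes encode enzymes that reduce reactive carbonyls and quinones with NADPH or a related cofactor. NQO1 reduces quinones in a step that avoids the semiquinone radical. AKR1B10 and the AKR1C enzymes reduce aldehydes, ketones, steroids and prostaglandins, and CBR1 and CBR3 are short-chain carbonyl reductases. PIR encodes pirin, an iron-binding nuclear protein with quercetinase activity. Many of the genes are textbook targets of NRF2, a transcription factor that KEAP1 holds down in unstressed cells and that binds the antioxidant response element in promoters and enhancers.

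The promoter windows of NQO1, PIR and CBR1 are shown, 3 of the genes whose levels were raised with 5SGlcNAc at 48 h, by different amounts. The windows are RefSeq sequence of GRCh38.p14, 300 bases long, from 250 bases before to 50 bases after the transcript start, written 5′ to 3′ on the gene's strand. NQO1 lies at chr16:69726511-69726810 on the minus strand, CBR1 at chr21:36069774-36070073 on the plus strand and PIR at chrX:15493284-15493583 on the minus strand. Capitals mark the core letters of the antioxidant response element, TGACNNNGC, searched on both strands.
NQO1: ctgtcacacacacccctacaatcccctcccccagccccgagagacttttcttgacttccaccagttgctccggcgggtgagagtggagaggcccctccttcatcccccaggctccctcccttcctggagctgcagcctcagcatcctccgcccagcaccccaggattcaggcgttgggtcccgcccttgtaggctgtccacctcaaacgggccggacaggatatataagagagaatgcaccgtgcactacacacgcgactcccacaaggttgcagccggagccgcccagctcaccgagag
CBR1: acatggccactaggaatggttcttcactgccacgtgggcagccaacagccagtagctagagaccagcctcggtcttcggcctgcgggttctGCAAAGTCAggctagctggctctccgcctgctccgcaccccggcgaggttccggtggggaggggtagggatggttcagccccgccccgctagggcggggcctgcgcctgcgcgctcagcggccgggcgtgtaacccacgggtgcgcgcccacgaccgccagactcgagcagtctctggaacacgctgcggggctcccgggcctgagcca
PIR: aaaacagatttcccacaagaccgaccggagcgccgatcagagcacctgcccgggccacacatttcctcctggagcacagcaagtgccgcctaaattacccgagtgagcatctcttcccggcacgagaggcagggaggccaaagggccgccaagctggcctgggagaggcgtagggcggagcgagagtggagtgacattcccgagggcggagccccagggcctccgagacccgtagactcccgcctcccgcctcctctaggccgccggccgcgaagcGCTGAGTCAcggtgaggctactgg
The CBR1 window held GCAAAGTCA, a match on the opposite strand that begins at position -159 from the start. PIR held GCTGAGTCA, also on the opposite strand, beginning 26 bases after the start and overlapping a match to TGANTCA, the AP-1 motif. Of 10 windows found for 8 of the 10 genes, AKR1B1 included, these 2 held the core. The windows of AKR1C1, AKR1C2 and AKR1C3, which were also called as higher, did not hold it. Over all promoters in the table, 4687 of 35116 windows held it, or 13.3%. The absence of the letters in the NQO1 window says only that they are not in these 300 bases.

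AKR1C1 and AKR1C2 are neighbours on chromosome 10 and closely related, and their windows are shown as a view of how alike the genes are at their starts. They are mostly sequence before the transcript, and do not show how alike the transcribed sequence is that the probes bind. Capitals here mark bases that are not identical when the windows are aligned. AKR1C1 lies at chr10:4963165-4963464 on the plus strand and AKR1C2 at chr10:5003808-5004107 on the minus strand.
AKR1C1: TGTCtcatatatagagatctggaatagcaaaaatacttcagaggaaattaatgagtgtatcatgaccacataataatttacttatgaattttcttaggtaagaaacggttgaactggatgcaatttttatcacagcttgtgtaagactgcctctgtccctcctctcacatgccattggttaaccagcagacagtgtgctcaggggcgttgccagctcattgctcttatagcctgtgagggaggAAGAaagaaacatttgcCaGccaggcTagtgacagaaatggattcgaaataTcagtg
AKR1C2: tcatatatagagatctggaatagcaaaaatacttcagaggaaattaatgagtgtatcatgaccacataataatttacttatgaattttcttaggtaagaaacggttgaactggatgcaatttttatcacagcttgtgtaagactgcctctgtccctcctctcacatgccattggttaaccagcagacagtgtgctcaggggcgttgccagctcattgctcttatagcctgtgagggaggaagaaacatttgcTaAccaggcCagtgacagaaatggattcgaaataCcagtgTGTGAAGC
The alignment was identical in 288 of 308 columns, or 93.5%. Against the AKR1C1 window, the nearer of the AKR1C3 windows was identical in 233 of 312 columns, or 74.7%. Of the 6 AKR1C probe sets, 4 end in _x_at, which marks probes that may bind related transcripts. These are 204151_x_at and 216594_x_at for AKR1C1, and 209699_x_at and 211653_x_at for AKR1C2. By that mark their signals may mix RNA of related genes, although the annotation names 1 gene for each.

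The 9 arrays of 48 h and the 18 arrays of 0 to 24 h had different array medians, 7.68 to 7.75 and 7.42 to 7.52 log2 units, and no level was set across these sets. The lowest correlation between arrays was 0.997 at 48 h and 0.994 in the other set. ACTB probes from the 3' and 5' ends of the transcript, whose log2 difference grows as RNA degrades, differed by 0.15 to 0.25 with 5SGlcNAc, 0.25 to 0.39 with Thiamet-G and 0.22 to 0.33 with DMSO at 48 h. Among the earlier arrays this difference was 0.42 to 0.95, apart from 1.24 with Thiamet-G and 1.64 with DMSO at 4 h. Of 8 mesenchymal markers of the line, VIM, LGALS1, AXL, CAV1, CD44, MSN and S100A4 were at percentile 97.2 of probe sets or above, and SPARC was at 13.7. Of 9 luminal markers, PGR was at percentile 6.15, CDH1 at 25.6, ESR1 at 44.9, TFF1 at 48.7, EPCAM at 69.2 and GATA3 at 74.1. The keratin genes KRT18, KRT8 and KRT19 on that list were at 98.3, 95.3 and 88.6. Of 7 fibroblast markers, COL1A1 was at 67.7 and the rest were at 9.29 to 39.8. Of 5 haematopoietic markers, PTPRC, which defines leukocytes, was at 6.00, CD3D, CD14 and ITGAM were at 29.9, 30.1 and 36.3, and LAPTM5 was at 77.9. The mean over the mesenchymal list was 12.49 to 12.53 in 5SGlcNAc arrays, 12.60 to 12.63 in Thiamet-G arrays and 12.56 to 12.63 in DMSO arrays, with 0 of 8 markers higher and 1 lower with 5SGlcNAc than with DMSO. The mean over 9 luminal markers was 8.92 to 8.94 with 5SGlcNAc, 9.06 to 9.10 with Thiamet-G and 9.06 to 9.12 with DMSO, again with 0 higher and 1 lower. Neither the fibroblast list, with 0 of 7 called, nor the haematopoietic list, with 0 higher and 1 lower of 5, rose with 5SGlcNAc. What part these shifts have in the results below was not tested.

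With 5SGlcNAc for 48 h, 12 of the 14 probe sets differed from DMSO, 11 higher and 1 lower. Over all probe sets 6.70% were called, 1.74% as higher and 4.96% as lower. The genes were chosen with earlier results of these data known, which these shares do not take into account. NQO1 rose most, by 2.10 to 2.49-fold, followed by PIR, AKR1B10, AKR1C3, the other AKR1C genes and CBR1. CBR3 fell, and NQO2 did not pass. The median log2 change of the 14 probe sets was 0.42, against 0.01 over all probe sets. Taken by the brightest probe set of each gene, 7 of 9 genes were higher and 1 lower, where 2.17% and 6.10% of all genes were called in those directions. Of these 7, AKR1C2 and CBR1 lost their calls without any 1 array of the 5SGlcNAc or DMSO groups. AKR1C1 and AKR1C2 were each counted by a probe set ending in _x_at, so their signals may read the same RNA. Calls are adjusted p under 0.05 in limma, with Benjamini-Hochberg adjustment over all 22215 probe sets. In total RNA of a culture, less RNA per cell and fewer cells of a kind cannot be told apart.

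**Figure D1:**
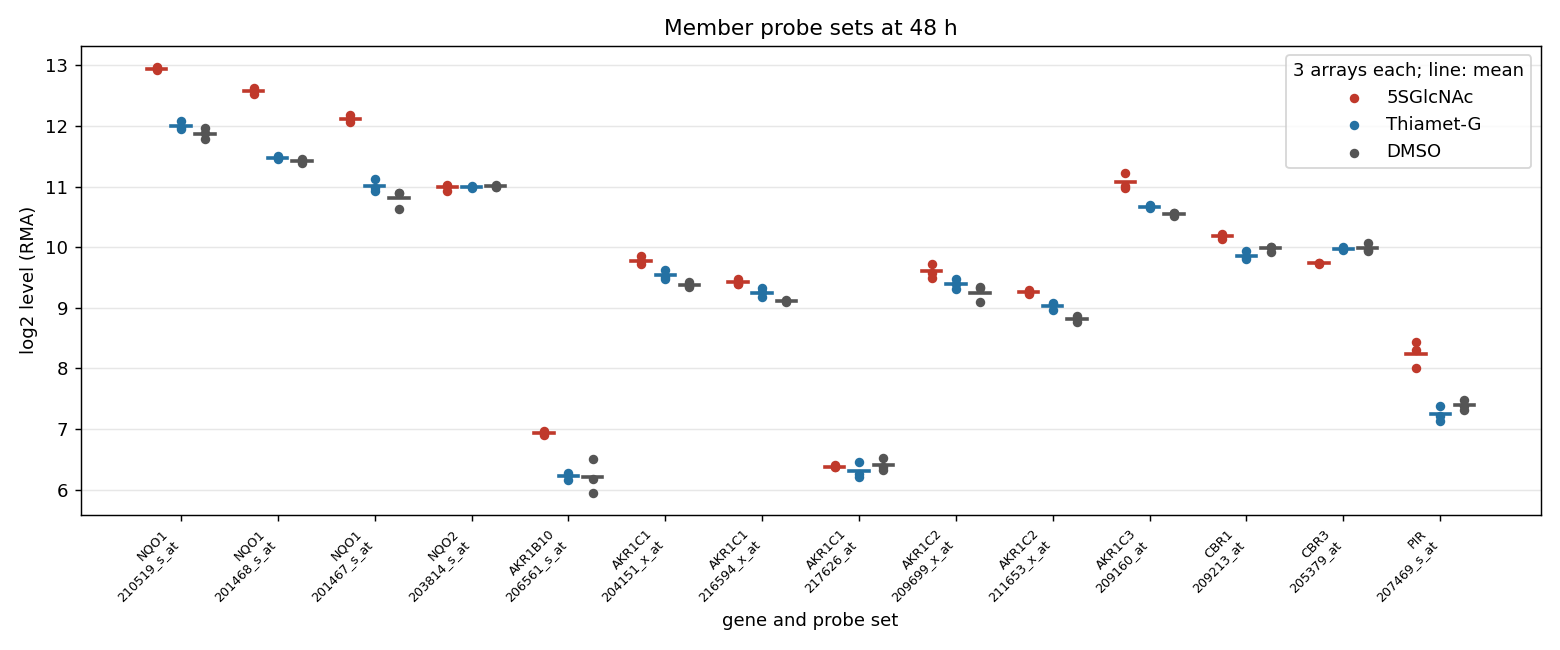
Log2 level of each of the 14 probe sets (x axis: gene and probe set) in the 9 arrays of 48 h, 3 each for 5SGlcNAc, Thiamet-G and DMSO, with a line at each group's mean. The 5SGlcNAc arrays of NQO1, PIR and AKR1B10 lie above all Thiamet-G and DMSO arrays, and those of CBR3 lie below them.

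NQO1, the quinone reductase itself, was read by 3 probe sets. The brightest, 210519_s_at, had log2 levels of 12.97, 12.95 and 12.92 in 5SGlcNAc arrays, 11.99, 11.95 and 12.08 in Thiamet-G arrays, and 11.79, 11.88 and 11.96 in DMSO arrays. All 3 arrays with 5SGlcNAc were above the other 6, and those of Thiamet-G and DMSO overlapped. The log2 change with 5SGlcNAc against DMSO was 1.07 (SE 0.0558, adjusted p = 1.80e-05 in limma). The probe set 201468_s_at had 12.62, 12.60 and 12.53 with 5SGlcNAc, 11.45, 11.51 and 11.47 with Thiamet-G, and 11.39, 11.42 and 11.46 with DMSO. Its log2 change was 1.16 (SE 0.0447, adjusted p = 1.96e-06 in limma). The third, 201467_s_at, had 12.19, 12.06 and 12.12 with 5SGlcNAc, 10.92, 10.98 and 11.12 with Thiamet-G, and 10.63, 10.90 and 10.90 with DMSO. It had a log2 change of 1.31 (SE 0.0831, adjusted p = 5.25e-05 in limma). The 3 probe sets thus gave 2.10-, 2.23- and 2.49-fold, with 95% intervals on the log2 scale of 0.94 to 1.20, 1.06 to 1.26 and 1.13 to 1.50.

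NQO2, a relative of NQO1 that uses dihydronicotinamide riboside in place of NAD(P)H, stood at 11.03, 10.93 and 11.01 with 5SGlcNAc, 11.00, 10.97 and 11.01 with Thiamet-G, and 11.03, 11.00 and 11.00 with DMSO. The 3 groups overlapped within 0.10 log2 units. The log2 change with 5SGlcNAc against DMSO was -0.02, with a 95% interval of -0.12 to 0.08 (adjusted p = 0.827 in limma). The interval's upper end lies under the lower end of each NQO1 interval.

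AKR1B10 encodes a reductase of retinal and lipid-derived aldehydes. Its levels were 6.90, 6.94 and 6.97 with 5SGlcNAc, 6.24, 6.16 and 6.28 with Thiamet-G, and 5.94, 6.18 and 6.50 with DMSO. The DMSO arrays were the most scattered of the 3 groups, with an SD of 0.281, but none reached the 5SGlcNAc arrays. The log2 change was 0.73 (SE 0.115, adjusted p = 0.00657 in limma), or 1.66-fold. This is 1 of the 2 dimmest of the 14 probe sets at 48 h.

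PIR had levels of 8.30, 8.01 and 8.43 with 5SGlcNAc, 7.38, 7.14 and 7.21 with Thiamet-G, and 7.31, 7.48 and 7.38 with DMSO. All 5SGlcNAc arrays were above the other 6. The log2 change against DMSO was 0.86 (SE 0.105, adjusted p = 0.00198 in limma), or 1.81-fold.

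The AKR1C enzymes act on steroid hormones and prostaglandins, and AKR1C3 makes testosterone from androstenedione. AKR1C3 was read by 209160_at, which does not end in _x_at. It had 11.01, 11.23 and 10.97 with 5SGlcNAc, 10.69, 10.68 and 10.64 with Thiamet-G, and 10.51, 10.57 and 10.56 with DMSO. The 3 groups did not overlap and stood in that order. The log2 change with 5SGlcNAc against DMSO was 0.52 (SE 0.0663, adjusted p = 0.00231 in limma), or 1.44-fold.

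AKR1C1, a 20-alpha-hydroxysteroid dehydrogenase that inactivates progesterone, was read differently by its probe sets. The brightest, 204151_x_at, had 9.77, 9.85 and 9.72 with 5SGlcNAc, 9.47, 9.63 and 9.51 with Thiamet-G, and 9.34, 9.36 and 9.43 with DMSO. The log2 change with 5SGlcNAc against DMSO was 0.40 (SE 0.0573, adjusted p = 0.00407 in limma). For 216594_x_at it was 0.31 (adjusted p = 0.00642 in limma), with 9.40 to 9.47 in 5SGlcNAc arrays, 9.18 to 9.32 in Thiamet-G arrays and 9.09 to 9.13 in DMSO arrays. In both probe sets the order of 5SGlcNAc, Thiamet-G and DMSO arrays had no overlap. The third, 217626_at, is the AKR1C1 probe set not marked as shared, and is dim. It had 6.37, 6.37 and 6.40 with 5SGlcNAc, 6.26, 6.46 and 6.21 with Thiamet-G, and 6.52, 6.37 and 6.32 with DMSO, with a log2 change of -0.02 (95% interval -0.19 to 0.14, adjusted p = 0.883 in limma). The AKR1C1 result thus rests on the probe sets ending in _x_at.

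AKR1C2, a 3-alpha-hydroxysteroid dehydrogenase, had 2 probe sets, both marked as shared. On 211653_x_at the levels were 9.25, 9.30 and 9.23 with 5SGlcNAc, 9.08, 9.07 and 8.96 with Thiamet-G, and 8.81, 8.87 and 8.77 with DMSO. The groups did not overlap, and the log2 change with 5SGlcNAc against DMSO was 0.44 (SE 0.0505, adjusted p = 0.00133 in limma). On 209699_x_at the levels were 9.50, 9.73 and 9.57 with 5SGlcNAc, 9.31, 9.47 and 9.40 with Thiamet-G, and 9.32, 9.09 and 9.34 with DMSO, and the change was 0.35 (adjusted p = 0.0379 in limma). This call was lost in the fit on the arrays of both groups alone (adjusted p = 0.0679) and without any 1 of the 6 arrays (0.0569 to 0.122).

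CBR1 and CBR3 are neighbours on chromosome 21 and moved apart with 5SGlcNAc at 48 h. CBR1, which reduces quinones, prostaglandins and anthracyclines, had 10.14, 10.22 and 10.18 with 5SGlcNAc, 9.84, 9.81 and 9.93 with Thiamet-G, and 9.92, 10.01 and 10.01 with DMSO. Its log2 change was 0.20 (SE 0.0504, adjusted p = 0.0465 in limma). That call was lost in the fit on the arrays of both groups alone (adjusted p = 0.0520) and without any 1 of the 6 arrays (0.0897 to 0.144). CBR3, its closest relative, had 9.74, 9.73 and 9.74 with 5SGlcNAc, 10.01, 9.97 and 9.95 with Thiamet-G, and 9.96, 10.07 and 9.94 with DMSO. The 5SGlcNAc arrays were the lowest, and the log2 change was -0.25 (SE 0.0470, adjusted p = 0.0132 in limma). Without 5SGlcNAc replicate 1 its adjusted p was 0.0526.

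Counted by overlap, 11 probe sets had all 5SGlcNAc arrays above all DMSO arrays and 1 had them below, where 11.5% and 15.9% of all probe sets did so. NQO2 and AKR1C1 217626_at overlapped. After median centring or quantile normalization of the arrays, 12 probe sets were still called, 11 higher and 1 lower.

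Thiamet-G for 48 h gave calls on 0 of the 14 probe sets against DMSO, where limma called 370 of all probe sets, or 1.67%. At an unadjusted p under 0.05 there were 6 of 14, and 3726 of all 22215. The median log2 change of the 14 was 0.09, against -0.01 over all. NQO1 had log2 differences of 0.13, 0.05 and 0.20 on 210519_s_at, 201468_s_at and 201467_s_at, with 95% intervals of 0.00 to 0.26, -0.05 to 0.15 and 0.01 to 0.38 (adjusted p = 0.281, 0.588 and 0.275 in limma). These intervals end below those of 5SGlcNAc, which started at 0.94. The largest difference was 0.22 on AKR1C2 211653_x_at (adjusted p = 0.0685 in limma), which passed without dim probe sets (adjusted p = 0.0201) and with a trended, robust variance (0.0261). AKR1C3 differed by 0.12 (95% interval -0.03 to 0.27), PIR by -0.15 (-0.38 to 0.09), AKR1B10 by 0.02 (-0.24 to 0.28), CBR1 by -0.12 (-0.23 to -0.01) and CBR3 by -0.01 (-0.12 to 0.09). The Thiamet-G arrays lay wholly above the DMSO arrays on 5 probe sets, those of NQO1 201467_s_at, AKR1C1 204151_x_at and 216594_x_at, AKR1C2 211653_x_at and AKR1C3, where 5.96% of all probe sets did so. They lay wholly below on 0, where 13.0% of all probe sets did so.

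**Figure D2:**
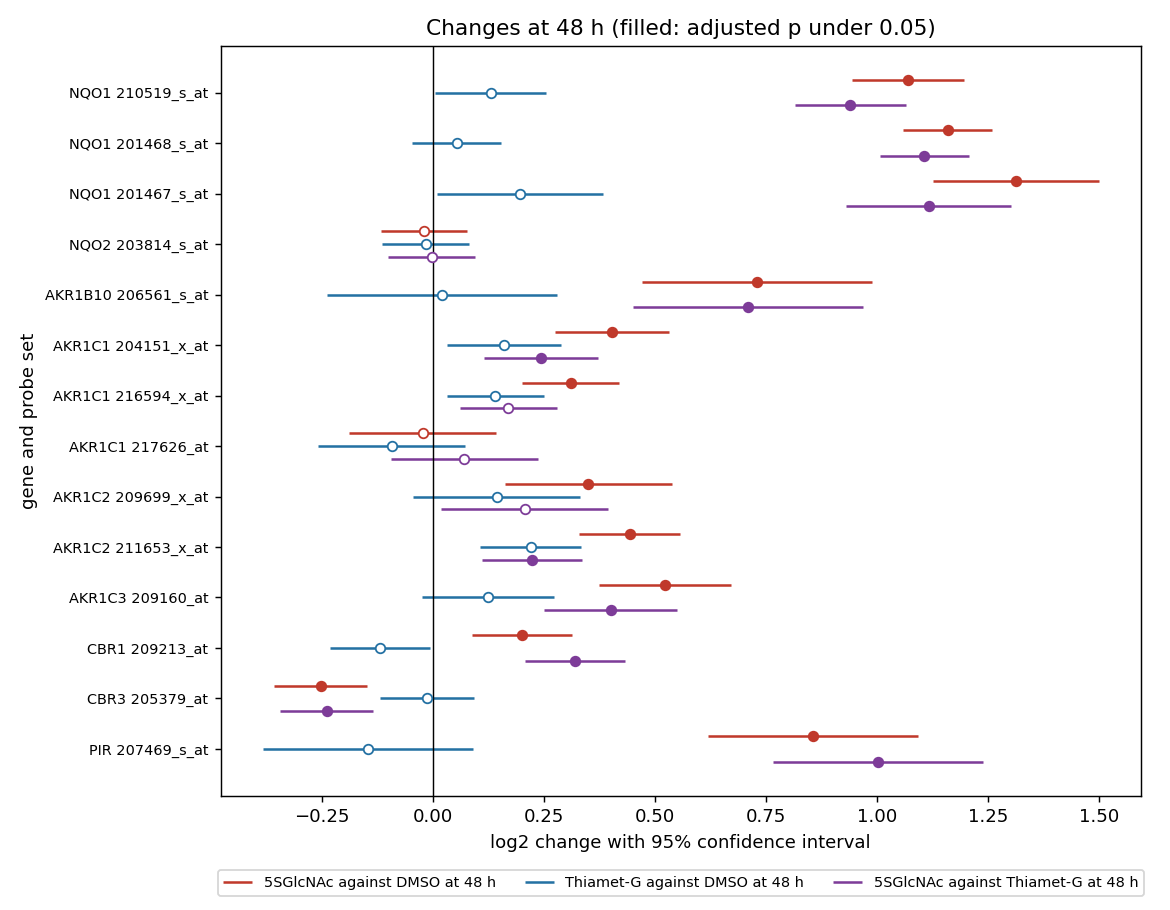
Log2 change at 48 h with its 95% confidence interval (x axis) for each probe set (y axis), for 5SGlcNAc against DMSO, Thiamet-G against DMSO and 5SGlcNAc against Thiamet-G, with filled points where adjusted p was under 0.05. The 5SGlcNAc intervals of NQO1 start at 0.94 or above, and every Thiamet-G point is open.

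Set directly against Thiamet-G at 48 h, 5SGlcNAc gave 10 called probe sets of 14, 9 higher and 1 lower, where 8.95% of all probe sets were called, 4.24% higher and 4.70% lower. The NQO1 probe sets were higher by 0.94, 1.11 and 1.12 on the log2 scale (adjusted p = 3.54e-05, 2.17e-06 and 0.000111 in limma, in the order above). PIR was higher by 1.003 (adjusted p = 0.000610), AKR1B10 by 0.71 (0.00566), AKR1C3 by 0.40 (0.00638) and CBR1 by 0.32 (0.00488). CBR3 was lower by 0.24, a log2 change of -0.24 (adjusted p = 0.0134), and its call was lost without 5SGlcNAc replicate 1 or Thiamet-G replicate 1 (adjusted p = 0.0506 and 0.0507). On the shared probe sets, AKR1C1 204151_x_at (0.24, adjusted p = 0.0295) and AKR1C2 211653_x_at (0.22, 0.0245) passed, while AKR1C1 216594_x_at (0.17, 0.0623) and AKR1C2 209699_x_at (0.21, 0.172) did not. Both calls were lost in the fit on the arrays of both groups alone (adjusted p = 0.0710 for AKR1C1 and 0.0578 for AKR1C2). AKR1C1 also lost its call without 5SGlcNAc replicate 1 or 2 or Thiamet-G replicate 1 or 3 (0.0837 to 0.101), and AKR1C2 without any 5SGlcNAc replicate or Thiamet-G replicate 3 (0.0551 to 0.0830). NQO2 differed by less than 0.01 (adjusted p = 0.975) and AKR1C1 217626_at by 0.07 (0.621). Both contrasts with 5SGlcNAc share its arrays, so they are given side by side only.

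From 0 to 24 h each value is 1 array. At 0 h the differences of the 14 probe sets from DMSO were -0.16 to 0.14 over both inhibitors, and 0 of 14 exceeded 0.3 either way, where 2.43% of all probe sets were higher and 1.50% lower with 5SGlcNAc, and 3.21% and 2.67% with Thiamet-G. In the tests that follow, the times stood in for replicates, so they address only an effect shared by the times. An effect at 1 time alone is averaged with the other times and adds to the spread. Tested as a mean over 2, 4, 6, 8 and 24 h, with time as a block, 0 of 14 probe sets were called for 5SGlcNAc against DMSO. Over all probe sets limma called 0%, and 1014 had an unadjusted p under 0.05, none of them among the 14. Thiamet-G against DMSO likewise had 0 of 14 called and 0% of all, with 1806 under an unadjusted 0.05 and again 0 of the 14. Between 5SGlcNAc and Thiamet-G 0 of 14 were called and 0.0675% of all, and 4 of 14 and 2712 of all had an unadjusted p under 0.05.

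At 4 h all 14 probe sets were lower in the 5SGlcNAc array than in the DMSO array, with log2 differences of -0.31 to -0.01 and a median of -0.12. All 14 were also lower in the Thiamet-G array, with differences of -0.43 to -0.01 and a median of -0.14. Over all probe sets 52.8% and 52.6% were lower, with medians of -0.01 and -0.01. Both comparisons share the 1 DMSO array, which also had the highest ACTB 3' minus 5' difference of the series, 1.64, against 0.89 with 5SGlcNAc and 1.24 with Thiamet-G at that time. Its part in these values was not tested. At 6 h 13 of 14 were higher with 5SGlcNAc and 10 with Thiamet-G than with DMSO, with medians of 0.10 and 0.07. Lower were 1 and 4 of 14, where 41.6% and 43.6% of all probe sets were lower, with medians of 0.03 and 0.02. Both comparisons again share 1 DMSO array, which had the lowest ACTB difference of the 0 to 24 h arrays, 0.42. It was 0.61 with 5SGlcNAc and 0.47 with Thiamet-G at 6 h, and its part was not tested.

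At 24 h the NQO1 probe sets differed in size. On 201468_s_at the log2 level was 12.08 with 5SGlcNAc, 11.35 with Thiamet-G and 11.46 with DMSO. On 210519_s_at it was 12.57, 12.19 and 12.25 in the same order of treatments, and on 201467_s_at 11.25, 11.00 and 11.14. The differences of 5SGlcNAc from DMSO were thus 0.61, 0.32 and 0.11, and 5SGlcNAc was the highest of the 3 arrays on each. PIR stood at 7.47 with 5SGlcNAc, 6.78 with Thiamet-G and 7.19 with DMSO. NQO2 had 10.60 with 5SGlcNAc, 10.77 with Thiamet-G and 11.03 with DMSO, a difference of -0.43 for 5SGlcNAc, against -0.02 between the means at 48 h. Counting differences over 0.3, 2 of 14 were higher with 5SGlcNAc, both NQO1, and 1 lower, NQO2, where 8.19% and 10.0% of all probe sets were. With Thiamet-G 0 were higher and 2 lower, AKR1B10 by -0.46 and PIR by -0.41, where 6.63% and 4.68% of all were. In that Thiamet-G array AKR1B10 stood at 5.14 and PIR at 6.78, under the array medians of 7.42 to 7.52. These values have no replicate.

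**Figure D3:**
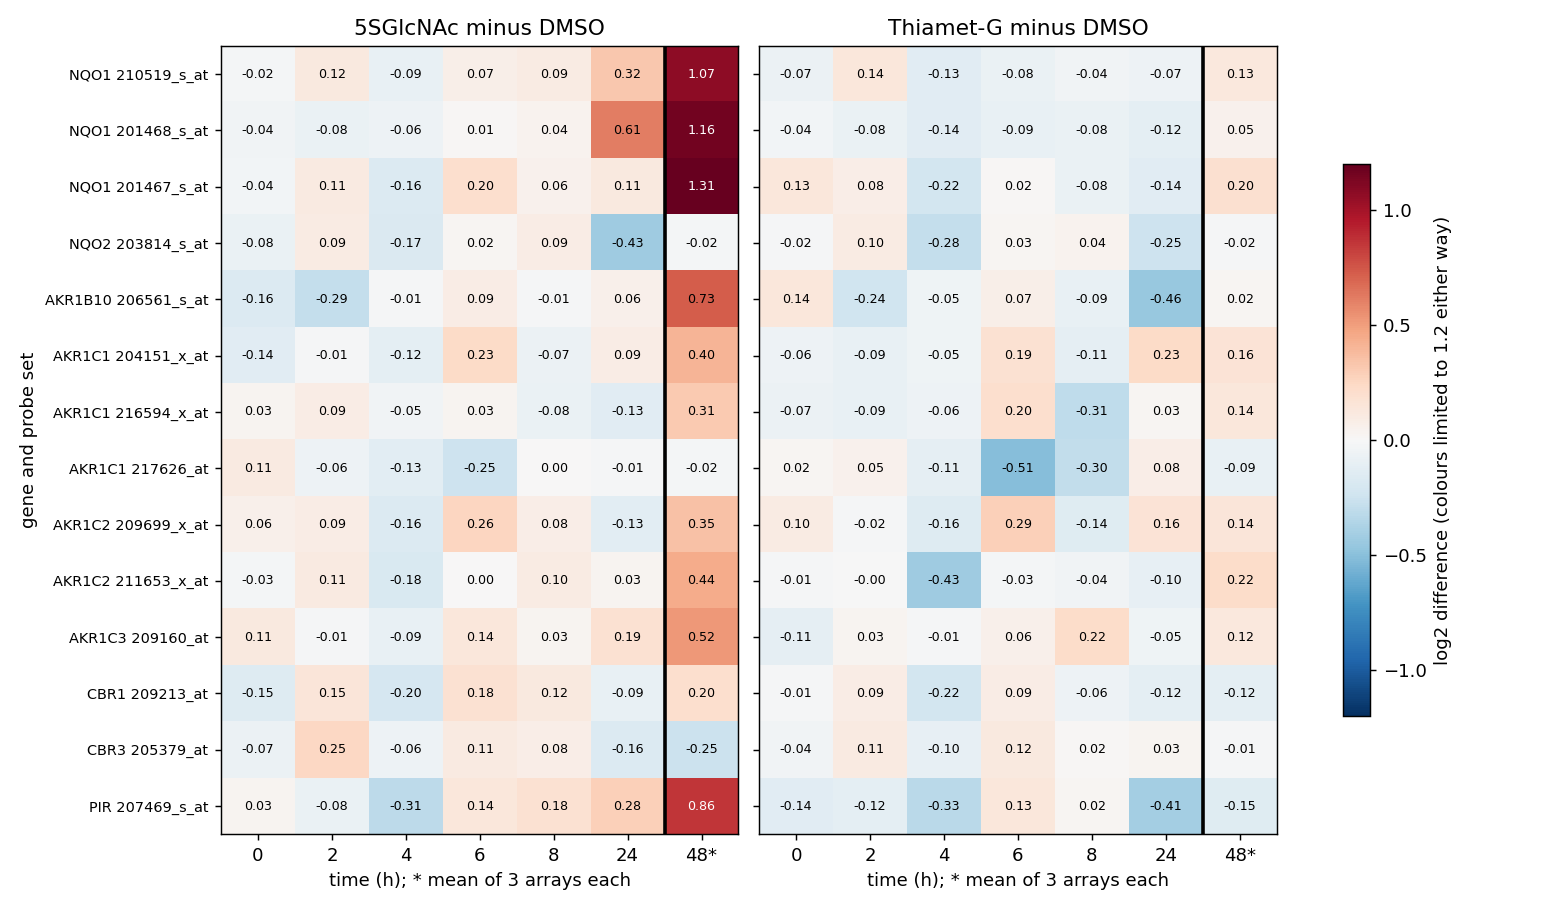
Log2 difference from DMSO of each probe set (y axis) at each time in hours (x axis), for 5SGlcNAc on the left and Thiamet-G on the right, with 1 array per treatment from 0 to 24 h and the difference between means of 3 arrays at 48 h. At 4 h every cell is below 0, and the 48 h column of 5SGlcNAc reaches 1.31.

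Whether the 5SGlcNAc difference at 24 h departed from that at 2 to 8 h was tested in 1 fit. At 24 h there is 1 array per treatment, so its spread is assumed to be that of the other arrays, and the intervals and p-values rest on this. Of 14 probe sets 0 were called, where limma called 1 of all, or 0.00450%, and 2 of 14 and 3293 of all had an unadjusted p under 0.05. For NQO1 201468_s_at the estimate was 0.64 (95% interval 0.41 to 0.86, adjusted p = 0.0784). It passed without dim probe sets (adjusted p = 0.0231) and with a trended, robust variance (0.00165). NQO1 210519_s_at gave 0.27 (-0.01 to 0.55), 201467_s_at 0.06 (-0.25 to 0.38), PIR 0.30 (-0.09 to 0.70) and NQO2 -0.44 (-0.75 to -0.12, adjusted p = 0.231 in limma).

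Levels also differed between 24 h and 0 h. The DMSO, 5SGlcNAc and Thiamet-G series stood in for replicates, so their mean change includes time under the inhibitors. Comparing 24 h with 0 h over the 3 treatment series as blocks, 5 of 14 probe sets were called, 4 higher and 1 lower, where 7.33% of all were, 3.57% higher and 3.77% lower. NQO1 rose by 0.50, 0.54 and 0.52 on the log2 scale on 210519_s_at, 201468_s_at and 201467_s_at (adjusted p = 0.00118, 0.0111 and 0.00128 in limma). Within the series, 201468_s_at was higher at 24 h than at 0 h by 0.9999 with 5SGlcNAc, 0.26 with Thiamet-G and 0.34 with DMSO. For 210519_s_at these were 0.73, 0.39 and 0.39, and for 201467_s_at 0.71, 0.29 and 0.56. At 0 h PIR stood at 6.45 to 6.62, under the array medians, and it dropped out when dim probe sets were left out. PIR rose by 0.59 (adjusted p = 0.00651), the mean of 0.85 with 5SGlcNAc, 0.33 with Thiamet-G and 0.60 with DMSO. AKR1C2 211653_x_at fell, with a log2 change of -0.34 (adjusted p = 0.0123) the mean of -0.27, -0.41 and -0.33 in the same order. Calls were lost when series or arrays were left out, and the NQO1 and PIR estimates were smaller without the 5SGlcNAc series. Without the 5SGlcNAc series 0 of 14 passed in limma, with NQO1 at 0.39, 0.30 and 0.43 (adjusted p = 0.0602, 0.0826 and 0.0737), PIR at 0.47 (0.109) and AKR1C2 211653_x_at at -0.37 (0.133). Without the Thiamet-G series 3 passed, and the calls of NQO1 201468_s_at (adjusted p = 0.0518) and AKR1C2 211653_x_at (0.112) were lost. Without the DMSO series 2 passed, and those of NQO1 201468_s_at (0.0817), AKR1C2 211653_x_at (0.0730) and PIR (0.0845) were lost. On the 6 arrays of 0 and 24 h alone, 0 of 14 passed in limma (adjusted p of 0.0688 to 0.140 for the 5). By the brightest probe set, 2 of 9 genes were called, NQO1 and PIR, both higher, where 4.07% of all genes were called as higher and 4.39% as lower. Of the NRF2 targets outside these genes, 8 of 28 were higher and 1 lower, with a median of 0.17 against 0.01 over all genes.

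**Figure D4:**
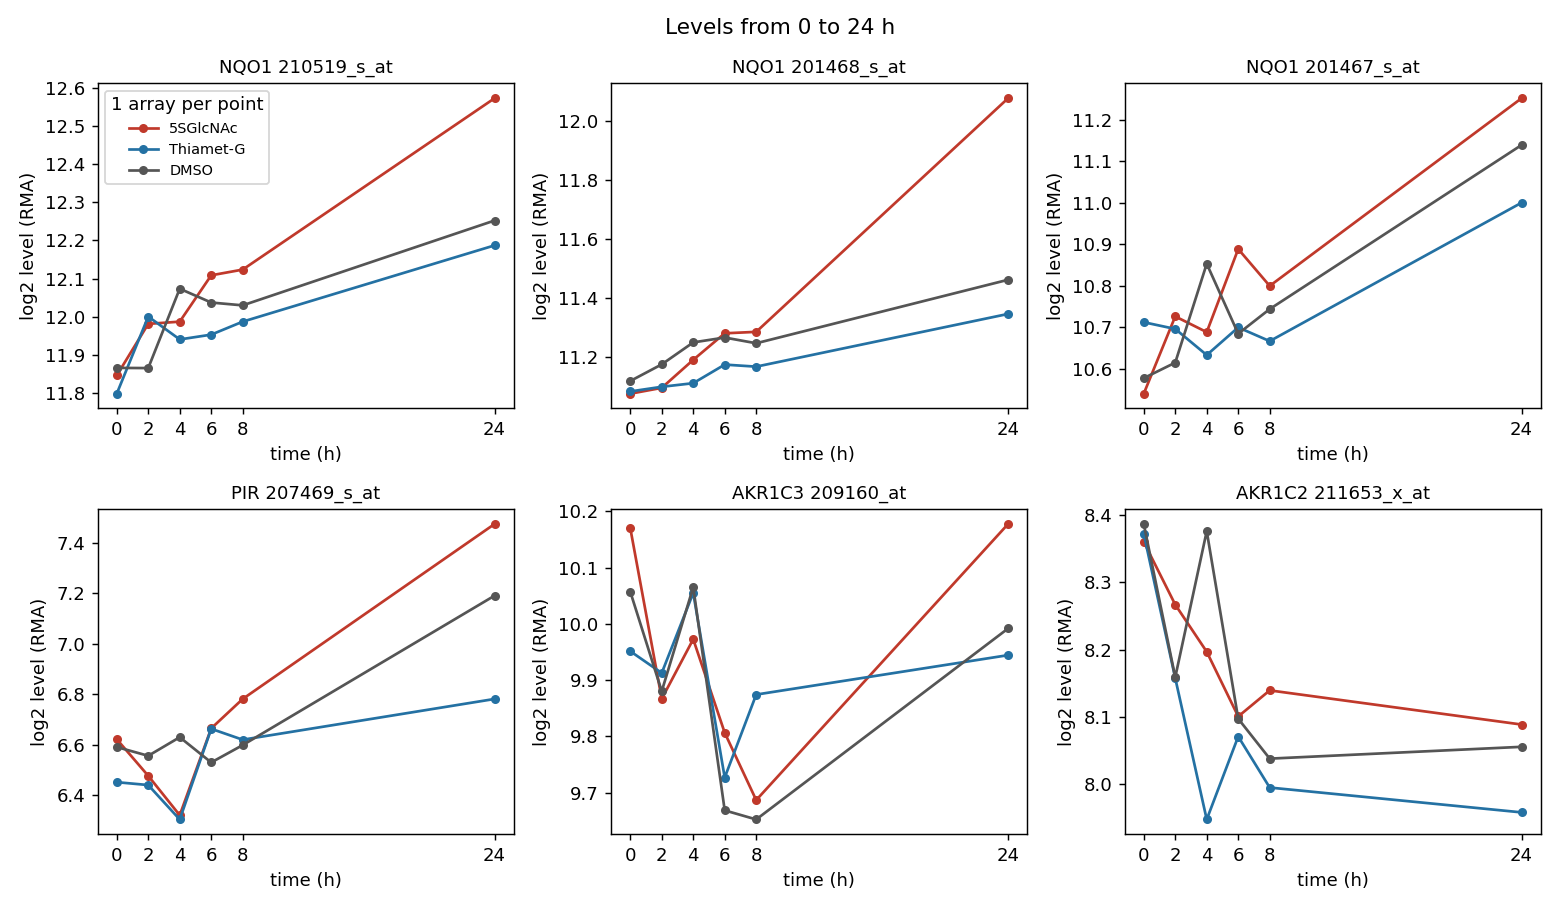
Log2 level (y axis) against time in hours (x axis) for the 3 NQO1 probe sets, PIR, AKR1C3 and AKR1C2 211653_x_at, with 1 array per point for 5SGlcNAc, Thiamet-G and DMSO. NQO1 and PIR are higher at 24 h than at 0 h in all 3 series, and AKR1C2 211653_x_at is lower.

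The 5SGlcNAc effect at 48 h was larger than its mean over 2 to 24 h on 7 of 14 probe sets, all higher, where 0.851% of all probe sets were called and 0.189% as higher. Each effect was taken within its own set of arrays before subtracting. Both sets shared 1 spread in the fit, so the intervals and p-values assume that their spreads are alike. The 3 NQO1 probe sets had differences of 0.97, 1.05 and 1.25 (adjusted p = 1.89e-05, 0.000335 and 3.76e-06 in limma). PIR had 0.81, AKR1B10 0.76, AKR1C3 0.47 and AKR1C2 211653_x_at 0.43. From 0 to 24 h AKR1B10 was dim, at 5.14 to 5.65, and it dropped out when dim probe sets were left out. AKR1C1 204151_x_at had 0.38 (95% interval 0.19 to 0.57, adjusted p = 0.0505 in limma). It passed with quantile normalization (adjusted p = 0.0462), median centring (0.0260), no dim probe sets (0.0196), the trended variance (0.0162) and 1 probe set per gene (0.0346). CBR3 had -0.30 (-0.47 to -0.13, adjusted p = 0.0971 in limma) and passed without dim probe sets (0.0410) and with the trended variance (0.0442), and AKR1C1 216594_x_at had 0.34 (0.107) and passed without dim probe sets (0.0479). CBR1 had 0.17 (-0.01 to 0.34) and NQO2 0.06 (-0.15 to 0.27). By the brightest probe set, 4 of 9 genes were called, all higher, where 0.226% of all genes were called as higher and 0.861% as lower, and 7 of 28 NRF2 targets outside these genes were higher and 0 lower. Time and the set of arrays change together in this comparison and cannot be told apart.

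The likeness of other genes to NQO1 210519_s_at was taken as Pearson's r over the 27 arrays, after each set of arrays was centred. It is a description, as the arrays share treatments and processing. The most like were FTL, the ferritin light chain, at 0.96, FTH1P5, a ferritin heavy chain pseudogene read by a probe set ending in _x_at, at 0.95, HMOX1, haem oxygenase 1, at 0.93, CTSL, cathepsin L, at 0.92, and UNKL at 0.92. The other NQO1 probe sets had 0.98 each. PIR was 12th with 0.88, AKR1B10 37th with 0.79, CBR1 98th with 0.69, and AKR1C3 stood at 0.66, while CBR3 had -0.66. Within the 0 to 24 h arrays alone, PIR kept 0.85, AKR1B10 had 0.17, AKR1C3 0.14, AKR1C1 204151_x_at -0.29 and AKR1C2 209699_x_at -0.25. Among the AKR1C probe sets, the 4 ending in _x_at had r of 0.60 to 0.88 with each other over 27 arrays, and 0.62 to 0.77 with AKR1C3. AKR1C1 217626_at had 0.15 to 0.36 with the rest.

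Other enzymes of related chemistry were counted in the same way at 48 h, where over all genes 2.17% were called as higher and 6.10% as lower with 5SGlcNAc. Of 7 other aldo-keto reductases measured, 0 were higher and 1 lower with 5SGlcNAc than with DMSO, AKR7A2, which reduces succinic semialdehyde (log2 change -0.25, adjusted p = 0.00697 in limma, and -0.36 on its other probe set). The median of the list was -0.02, against 0.01 over all genes. Of 21 other carbonyl and quinone reductases, 0 were higher and 5 lower, with a median of -0.13. DHRS2, a short-chain reductase, fell (log2 change -1.04, adjusted p = 0.000152, and -0.35 on its other probe set). DHRS11 changed by -0.52 (adjusted p = 0.0108) and CYB5R2, a cytochrome b5 reductase, by -0.44 (0.0423). Of 12 aldehyde and alcohol dehydrogenases, 0 were higher and 1 lower, ALDH7A1, which oxidises aldehydes of lysine breakdown (log2 change -0.26, adjusted p = 0.0110), with a median of -0.04.

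Known targets of NRF2 were chosen as a further list, without the genes of the rule and with earlier results of these data known. As defined, it shares BLVRA and BLVRB with the other carbonyl and quinone reductases and ALDH3A1 with the dehydrogenases. Of 28 NRF2 targets measured, 17 were higher and 0 lower, with a median log2 change of 0.27. HMOX1 rose by 2.36 (adjusted p = 6.55e-08 in limma), TRIM16, a ubiquitin ligase, by 1.47 (2.83e-07) and GCLM, a subunit of the glutathione synthesis enzyme, by 1.20 (0.000112). Of 7 regulators of NRF2, 1 was higher and 0 lower, MAFG, a partner of NRF2 on DNA, by 0.26 (adjusted p = 0.00749). The transcript of NRF2 itself, NFE2L2, differed by 0.01 (adjusted p = 0.945) and that of KEAP1 by 0.09 (0.249). Among 17 genes of steroid, prostaglandin and retinal metabolism, whose products the AKR1C and AKR1B enzymes handle, 0 were higher and 4 lower, with a median of -0.10. PTGS2, the inducible cyclooxygenase, changed by -0.78 (adjusted p = 0.00559), PTGES, a prostaglandin E synthase, by -0.69 (0.000258) and HSD17B8 by -0.59 (0.00637). Of 5 polyol pathway genes 0 were called, with a median of -0.02.

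**Figure D5:**
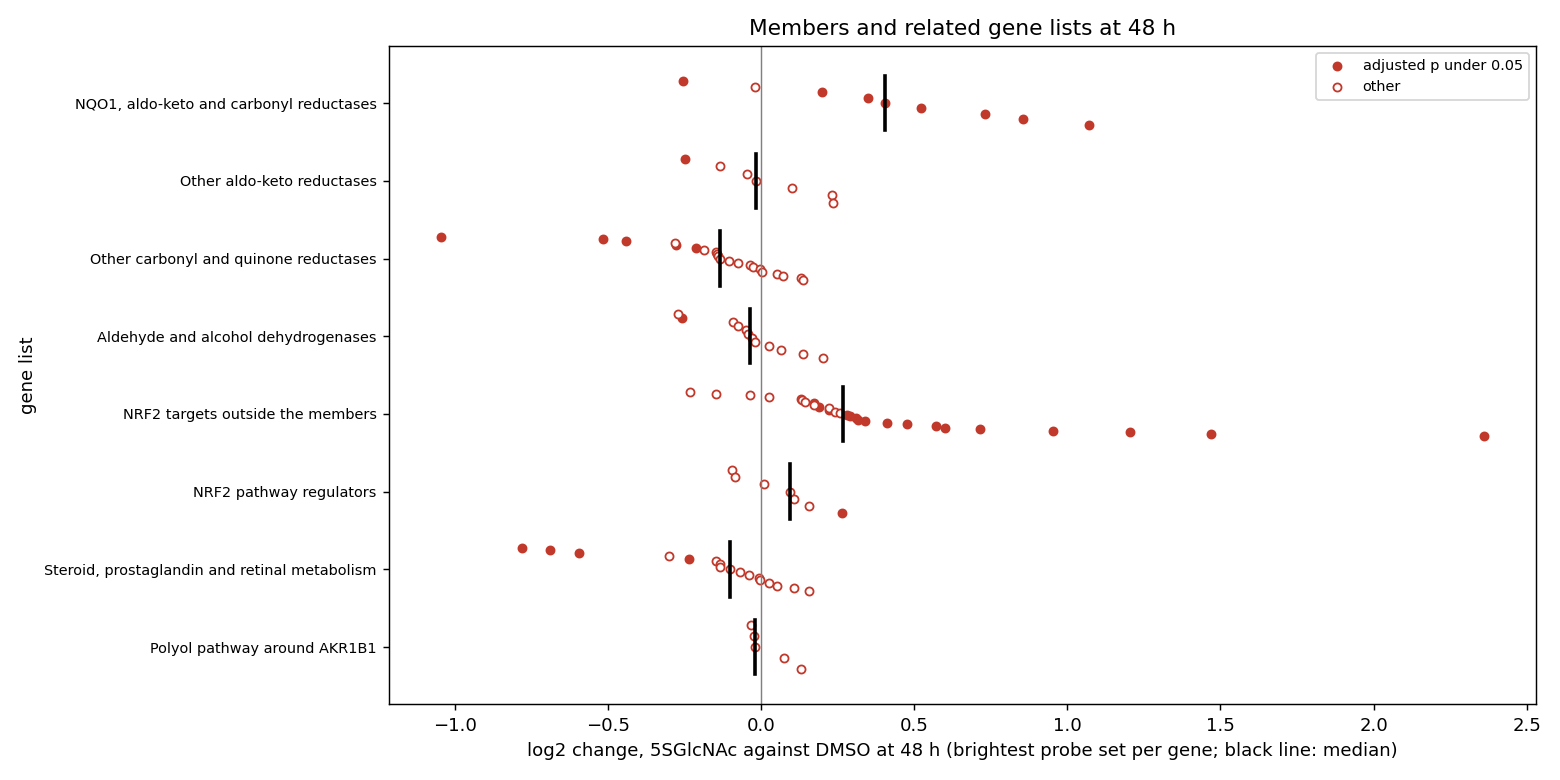
Log2 change with 5SGlcNAc against DMSO at 48 h (x axis) of each gene, by its brightest probe set, in the members and 7 related lists (y axis), with filled points where adjusted p was under 0.05 and a line at each list's median. The medians of the members and of the NRF2 targets are 0.40 and 0.27, and those of the other reductase lists are -0.02 and -0.13.

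With Thiamet-G against DMSO at 48 h, the same lists had few calls. Of 28 NRF2 targets, 0 were called, with a median log2 change of -0.01, where 0.251% of all genes were called as higher and 1.98% as lower. HMOX1 had -0.05 (adjusted p = 0.677 in limma), TRIM16 0.13 (0.181) and GCLM 0.14 (0.455). The other carbonyl and quinone reductases had 2 of 21 lower and 0 higher. These were DHRS12, at -0.41 (adjusted p = 0.0393), whose other probe set had -0.01 (0.983), and CBR4, a mitochondrial carbonyl reductase, at -0.30 (0.0472). ALDH2, the mitochondrial aldehyde dehydrogenase, was the 1 lower of 12 dehydrogenases, at -0.32 (adjusted p = 0.0400). The other aldo-keto reductases, the NRF2 regulators, the steroid and prostaglandin genes and the polyol genes had 0 called of 7, 7, 17 and 5.

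Between 5SGlcNAc and Thiamet-G at 48 h, 19 of 28 NRF2 targets were higher and 1 lower, with a median of 0.35 (0.02 over all genes), where 5.26% of all genes were called as higher and 5.74% as lower. HMOX1 was higher by 2.41 (adjusted p = 5.38e-08 in limma), TRIM16 by 1.34 (4.03e-07) and GCLM by 1.07 (0.000158). MAFG was higher by 0.33 (adjusted p = 0.00181) and KEAP1 by 0.24 (0.00965), 2 of 7 regulators. The other carbonyl and quinone reductases had 1 higher and 5 lower of 21, among them DHRS2 at -0.93 (adjusted p = 0.000253), CYB5R2 at -0.47 (0.0268) and DHRS11 at -0.38 (0.0333). AKR7A2 was the 1 called of 7 other aldo-keto reductases, at -0.18 (adjusted p = 0.0224). Of the dehydrogenases 2 of 12 were higher and 1 lower, with ALDH2 at 0.45 (adjusted p = 0.00220), ALDH3A2 at 0.29 (0.0132) and ALDH1A3, a retinal dehydrogenase, at -0.38 (0.0295). The steroid and prostaglandin list had 1 higher and 3 lower of 17, with PTGES at -0.95 (adjusted p = 4.15e-05), PTGS2 at -0.73 (0.00573) and HSD17B11 at -0.34 (0.0106). ALDOA, the glycolytic aldolase, was the 1 called of 5 polyol genes, at 0.18 (adjusted p = 0.0267).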

How the data were processed

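RNA of MDA-MB-231 cells was measured on 27 Affymetrix arrays. The deposited values are log2 levels per probe set, which the authors computed with RMA. The submitters' processing notes name the method without a version. It equalises arrays processed together, so it can hide a shift of most genes. The number of arrays limits the precision, and the median SE of a 48 h change was 0.0668. Genes were named from the platform annotation. Of the probe sets, 62 were controls and left out, 19064 named 1 gene, 1043 several and 2108 none, and 19052 symbols were matched to RefSeq. 0 probe sets named a member together with another gene.

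Linear models with moderated variance (R 4.3.3, limma 3.58.1) gave two-sided tests over all 22215 probe sets, with a threshold of 0.05 and no filter. All 9 arrays of 48 h shared 1 spread. Over 2 to 24 h time was a block, and for 24 h against 0 h the treatment series. The script was tested on simulated data. Members are always named. From each other list up to 3 called genes with the largest change in a 48 h contrast are named by their brightest probe set, and the 5 genes most like NQO1. NFE2L2 and KEAP1 without a call, and values beside a named gene in another contrast, were added after their values were seen. Some genes stand in more than 1 list. The members and lists were chosen with earlier results of these data known. Alternatives were quantile normalization, median centring, leaving out probe sets under the 40th percentile, a trended and robust variance, 1 probe set per gene, fewer arrays, a replicate block, and leaving out arrays, times or series. Promoters are RefSeq windows of GRCh38.p14, a build not named for the arrays.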

Additional observations from a re-analysis of the deposited data

Results flagged for a closer look

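On 7 probe sets the 5SGlcNAc effect at 48 h differed from its mean over 2 to 24 h by a direct test in limma. The test assumed 1 spread for both sets of arrays. The differences were 0.97, 1.05 and 1.25 log2 units for NQO1 210519_s_at, 201468_s_at and 201467_s_at, 0.76 for AKR1B10 (adjusted p = 0.0132), 0.43 for AKR1C2 211653_x_at, 0.47 for AKR1C3 and 0.81 for PIR (adjusted p = 0.0153 for each of these 3). All are higher at 48 h. The NQO1 and AKR1B10 calls held without any 1 of the 48 h arrays of 5SGlcNAc or DMSO. PIR lost its call without 5SGlcNAc replicate 1 or 3 or DMSO replicate 1, AKR1C3 without 5SGlcNAc replicate 2 or DMSO replicate 1, and AKR1C2 without 5SGlcNAc replicate 1 or 2 or DMSO replicate 1 or 3, with adjusted p of 0.0508 to 0.0621 in limma. Without 4 h all 7 were still called. Groups of 3 arrays are too small for a check of single arrays that stand apart.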

How the results depend on the processing

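No member that was called turned direction under the alternatives run. Counts of called probe sets moved more. For 5SGlcNAc against DMSO at 48 h, 1489 were called, against 2245 without dim probe sets, 2373 with a trended, robust variance and 660 to 1142 without 1 array, and 9 to 10 members then stayed called. For Thiamet-G against DMSO the count was 370, against 189 after quantile normalization, 130 after median centring, 1016 without dim probe sets and 1173 with the trended variance (1 member in each of these 2), 8 with the arrays of both groups alone, and 28 to 600 without 1 array. Of its calls 86.5% were lower, against 71.4% and 73.1% after the quantile and median scalings. For 5SGlcNAc against Thiamet-G it was 1988, against 2990, 3074 and 1204 without dim probe sets, with the trended variance and with both groups alone, and 1020 to 2447 without 1 array, with 7 to 10 members. Over 2 to 24 h, Thiamet-G against DMSO had 0, against 17 with the trended variance. 5SGlcNAc against Thiamet-G had 15, against 46 without dim probe sets, 171 with the trended variance, 31 with 1 probe set per gene and 0, 2, 0 and 1 without 4, 6, 8 and 24 h, with 10 without 2 h. For 24 h against 0 h it was 1629, against 209 with the 6 arrays of those times (0 members) and 254, 495 and 377 without the 5SGlcNAc, Thiamet-G and DMSO series (0, 3 and 2 members), and 2 members with 1 probe set per gene. For 24 h minus 2 to 8 h it was 1, against 6, 12, 58, 183 and 19 with quantile normalization, median centring, no dim probe sets, the trended variance and 1 probe set per gene, with 1 member without dim probe sets and 1 with the trended variance. For 48 h minus 2 to 24 h it was 189, against 409 without dim probe sets, 429 with the trended variance and 76 to 158 without 1 array or time, with 4 to 7 members. The causes were not tested.

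The replicate numbers of 48 h gave no sign of paired arrays: over 9 pairs of the same number, r was -0.28 to 0.16. Pairs of different numbers had r of -0.21 to 0.21. With 3 arrays per treatment these values cannot tell whether the arrays were paired, and the labels do not say what the numbers mean. With a replicate block, 981 probe sets and 10 members were called for 5SGlcNAc against DMSO, and 16 probe sets and 0 members for Thiamet-G against DMSO. CBR1 (adjusted p = 0.0773 in limma) and AKR1C2 209699_x_at (0.0819) lost their calls with the block.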
